A study of Mus musculus with 14 samples.

Results

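Broad domains of the histone variant H2A.Z were examined in mouse small intestinal epithelium. A broad domain here is a stretch of at least 3000 bp made by joining the overlapping or touching H2A.Z peaks of 8 libraries on chromosomes 1 to 19, with a peak in both libraries of adult Lgr5+ intestinal stem cells (ISC). There were 794 such domains among 44109 joined (union) regions, 1.8% of them, and they made up 3.36% of the 23599 regions with a peak in both ISC libraries. Since the peaks of all 8 libraries set the joined width and the ISC peaks decided which regions were kept, the values of the domains in these libraries are descriptions and carry no test. The exception is a comparison of regions chosen from the ISC libraries alone, given near the end, whose direction the size of the regions favours.

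Chromatin immunoprecipitation with sequencing was carried out with an antibody against H2A.Z on 4 stages, with 2 libraries each. The first and second were epithelium of E12.5 and E14.5 embryos, sorted as EpCAM+, CD31- and CD45- live cells. The third was ISC of the highest Lgr5-EGFP signal, and the fourth was enterocytes, sorted by the same 3 surface markers. Both adult cell types came from Lgr5EGFP-Cre-ERT males at P60, in which EGFP from the Lgr5 locus marks the stem cells of the crypt base, and all samples are labelled as a mixed C57BL/6 CD1 strain. The labels name no marker that belongs to enterocytes alone, and the peak lists hold no expression with which to check the cell types. The submitters describe the pair of libraries at each stage as biological duplicates, without saying whether these were separate animals or pools. Inputs, the unprecipitated DNA used as a background, were 1 for each embryonic library, 1 for both ISC libraries and 1 for both enterocyte libraries, per the file headers.

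H2A.Z replaces the canonical histone H2A in a small part of all nucleosomes. In mammals it is placed by the SRCAP and p400 remodelling complexes, and it sits on both sides of the start sites of many active or poised genes and at enhancers. In most places it marks a few nucleosomes around such a site, so that a stretch of several kilobases spans many nucleosomes or several neighbouring sites. In the adult intestine, Lgr5+ stem cells divide at the crypt base and give rise to enterocytes, the absorptive cells of the villus, whereas the embryonic epithelium at these ages has not yet formed crypts. The peaks are on the mouse build mm9. Genes and sequence under the domains were not analysed here, as no annotation of that build was used, so domains are named by their coordinates.

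The libraries held 27835048 to 41274126 tags and gave 6136 to 32131 peaks. E14.5 replicate 2 and enterocyte replicate 1 stood apart, with fragment sizes of 71 and 67 bp as estimated by the peak caller, close to the tag length of 68 bp, against 191 to 247 bp in the other libraries. Their peaks had a median width of 238 and 388 bp, against 731 to 921 bp. The caller extends each tag by the fragment size before it calls peaks. Results for E14.5 and enterocytes are therefore given for each library, and the part of the fragment size in them was not tested. The precipitated DNA came from many cells, so that fewer cells with H2A.Z at a site and less H2A.Z per cell cannot be told apart.

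Most domains were not far above the chosen width. Their median was 3456 bp with quartiles of 3193 and 3921 bp, and 423 of them (53.3%) were under 3500 bp. At least 4000 bp was reached by 179 domains and at least 5000 bp by 42, and together they spanned 2.92 Mb. The 3 domains just inside the limit were exactly 3000 bp wide and lay from 22758047 to 22761046 of chromosome 11, 110030144 to 110033143 of chromosome 12 and 43057821 to 43060820 of chromosome 4. The chromosome 11 domain was covered by peaks over 3000 and 2747 bp in ISC, and the chromosome 4 domain over 1535 and 3000 bp. Just outside were a region of 2999 bp from 17441060 to 17444058 of chromosome 10 and regions of 2998 bp from 100443788 to 100446785 of chromosome 15 and 28086545 to 28089542 of chromosome 8. The chromosome 10 region was covered over 2999 and 2840 bp in ISC and fell short of the limit by a single base.

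The domains were present at most stages and in most libraries. At E12.5, 92.1% and 87.5% of the 794 had a peak in replicates 1 and 2. The shares were 83.4% and 33.6% at E14.5, 100% in both ISC libraries by the choice of the domains, and 80.4% and 93.3% in enterocytes. The same shares in the 22805 regions under 3000 bp with a peak in both ISC libraries were lower in each of these 6 libraries, with 71.0% and 64.2% for E12.5, 58.1% and 21.0% for E14.5, and 45.8% and 70.4% for enterocytes. A wider region has more room to hold a peak, and the part of the width in this gap was not tested.

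All 8 libraries had a peak in 230 domains (29.0%), against 16.4% of the narrower regions and 9.03% of all union regions. Without E14.5 replicate 2, a peak in each remaining library was found in 68.1%. A further 335 domains had a peak in 7 libraries, and in 311 of these the missing library was E14.5 replicate 2. In the 6 libraries of longer fragment size, 606 domains (76.3%) had a peak throughout, against 46.7% of the narrower regions and 25.5% of all. Domains without a peak in either enterocyte library numbered 51 (6.42%), against 29.3% of the narrower regions and 15.3% of all. Domains without a peak in any embryonic library numbered 50 (6.30%), against 25.4% of the narrower regions and 13.3% of all. Without ISC replicate 2 these 2 counts were 30 and 24 of 579 domains, and without enterocyte replicate 2, whose peaks were wider, 147 of 739 domains lacked an enterocyte peak. When only peaks with −log10 q of at least 10 were kept, 75.7% of the 255 remaining domains had no enterocyte peak and 49.0% no embryonic peak. With the strongest 6136 peaks of each list kept instead, 5.95% of 185 domains lacked an enterocyte peak and 14.1% an embryonic peak. The shares of other regions were not computed with either choice of peaks or without single libraries. These altered shares are therefore no result about the domains. Of all 794 domains, only 12 (1.51%) had a peak in the ISC libraries and nowhere else, against 13.4% of the narrower regions and 6.97% of all. Within the embryo, no domain had a peak in both E14.5 and neither E12.5 library, against 0.0833% of the narrower regions and 0.0725% of all. The reverse held for 52 domains (6.55%), against 8.46% and 10.4%. The last share was near or below these backgrounds and is no result about the domains.

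Although most stages had a peak in most domains, they covered different lengths of them. The median domain was covered over 1894.5 and 1458 bp at E12.5 (replicate 1 before replicate 2), 1186 and 0 bp at E14.5, 3040 and 3056 bp in ISC, and 664 and 2111.5 bp in enterocytes. As a share of the domain's width, the medians were 46.8% ± 8.53 at E12.5, 16.6% ± 23.5 at E14.5, 91.5% ± 1.01 in ISC and 38.9% ± 29.4 in enterocytes (SD, n = 2 each). The ISC libraries were the highest, which the choice by ISC peaks favours, and lay close together. The 2 libraries lay far apart at E14.5 and in enterocytes. The narrower regions with a peak in both ISC libraries gave the same order of stage means. Their medians were 54.0% ± 12.4 at E12.5, 14.9% ± 21.0 at E14.5, 86.9% ± 2.37 in ISC and 26.9% ± 38.1 in enterocytes (SD, n = 2 each). In the libraries of longer fragment size the medians were 52.8% and 40.8% at E12.5, 33.3% in E14.5 replicate 1 and, for enterocytes, 59.6% in replicate 2. Enterocyte replicate 2 thus lay above both E12.5 libraries, so the order of the stage means did not hold there. In the narrower regions the median of enterocyte replicate 2, 53.9%, lay between the 62.8% and 45.3% at E12.5. When only peaks with −log10 q of at least 10 were kept, the medians were 5.57% at E12.5, 95.9% in ISC and 0% in enterocytes. With the strongest 6136 peaks of each list kept instead, they were 35.1% at E12.5, 95.0% in ISC and 45.6% in enterocytes. Summed over all domains, peaks covered 1.55 and 1.18 Mb at E12.5, 1.00 and 0.106 Mb at E14.5, 2.40 and 2.43 Mb in ISC, and 0.612 and 1.67 Mb in enterocytes.

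**Figure D1:**
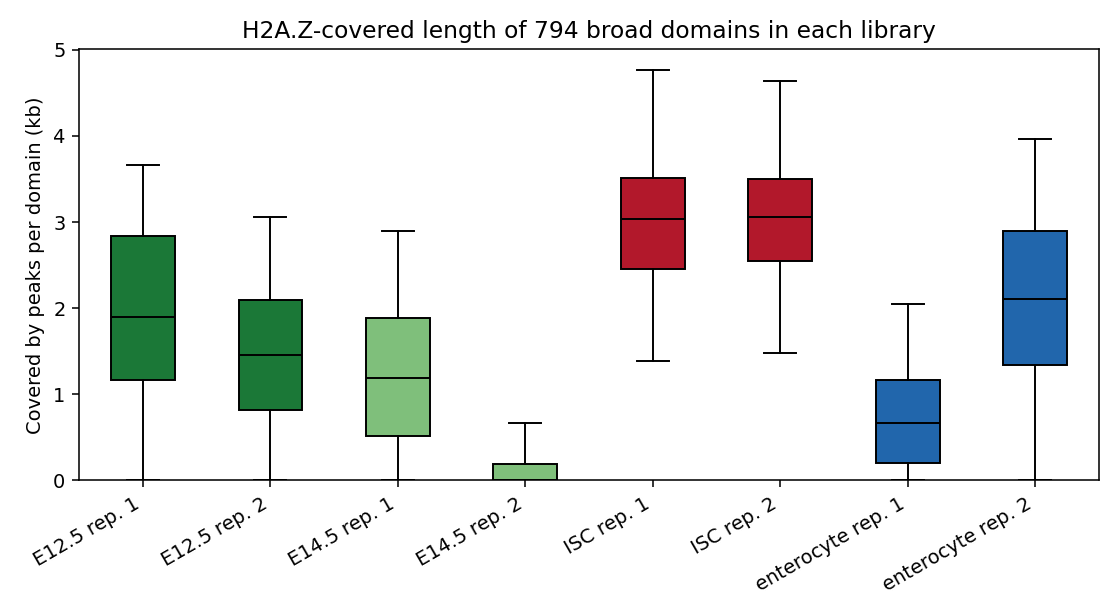
Length covered by H2A.Z peaks (kb) in each of the 794 broad domains, by library. Boxes span the quartiles with the median as a line, whiskers run from the 5th to the 95th percentile, and colours mark the 4 stages. Both ISC medians, 3040 and 3056 bp, lie above those of the 6 other libraries, the next highest being 2111.5 bp in enterocyte replicate 2.

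The coverage in ISC was compared with that at each other stage by counting the domains in which the libraries did not overlap. Both enterocyte libraries covered more bases than both ISC libraries in 0 domains, against 0.171% of the narrower regions and 0.367% of all union regions. Both ISC libraries covered more in 590 domains (74.3%), against 75.7% and 40.5%, a share close to that of the narrower regions. Both ISC libraries exceeded both E12.5 libraries in 606 domains (76.3%), against 66.2% and 35.6%. The opposite held in 28 domains (3.53%), against 7.21% and 11.6%. ISC exceeded E14.5 in 733 domains (92.3%), against 89.8% and 48.1%, and E14.5 exceeded ISC in 0, against 0.0395% and 0.279%. In 447 domains (56.3%) both ISC libraries covered more than each of the other 6, against 49.7% and 26.7%. The choice of the domains required ISC peaks, which favours ISC in these counts.

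The same counts were made without the ISC libraries. Both enterocyte libraries covered more than both E12.5 libraries in 68 domains (8.56%), against 6.91% of the narrower regions and 4.26% of all. The opposite held in 219 (27.6%), against 29.5% and 24.5%. These shares lay close to those of the narrower regions. Both E14.5 libraries covered more than both E12.5 libraries in 0 domains, against 0.136% and 0.111%, and both E12.5 libraries covered more in 443 (55.8%), against 43.5% and 31.4%. The low coverage in E14.5 replicate 2 and enterocyte replicate 1 enters all of these counts. An exact two-sided test of 2 libraries against 2 could not give a p below 0.333.

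In ISC the domains were mostly 1 long peak, which their choice by width and ISC peaks favours, and elsewhere shorter peaks. A single peak of at least 3000 bp was found in 414 and 439 domains in the ISC libraries (52.1% and 55.3%). This was so in 144 and 42 domains at E12.5 (18.1% and 5.29%), in 30 and 0 domains at E14.5, and in 2 and 157 in enterocytes (0.252% and 19.8%). Both libraries of the stage had such a peak in 34 domains at E12.5, 0 at E14.5, 270 in ISC and 2 in enterocytes. On all chromosomes together, the whole ISC lists held 425 and 456 peaks of this width. The E12.5 lists held 147 and 43, the E14.5 lists held 33 and 2, and the enterocyte lists held 2 and 160. Any such peak makes its own region at least 3000 bp wide, and most of these peaks lay in the domains. The counts by stage therefore mostly restate how many wide peaks each list held. In 141 domains (17.8%) no library had a peak of that width, and the domain reached 3000 bp only by joining peaks of different libraries. Among the 270 domains with such a peak in both ISC libraries, E12.5 replicates 1 and 2 also had one in 82 (30.4%) and 34 (12.6%), the E14.5 libraries in 26 (9.63%) and 0, and the enterocyte libraries in 2 (0.741%) and 104 (38.5%).

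The widest peaks of the domains were then ranked within their own library, which the choice by width favours. Where a library had a peak in a domain, the median of its widest peak was 1826 and 1424 bp at E12.5, 1241.5 and 284 bp at E14.5, 3022.5 and 3044.5 bp in ISC, and 624 and 1994 bp in enterocytes. Ranked by width among all peaks of the same library, the median stood at the percentiles 94.1 and 88.2 at E12.5, 82.5 and 60.5 at E14.5, 98.5 and 98.7 in ISC, and 72.7 and 94.6 in enterocytes. In the narrower regions the percentiles were 52.8 to 63.5 in the 8 libraries. The domains held only 2.82% to 7.62% of the peaks of a library on chromosomes 1 to 19, and 6.13% to 8.80% of the bases that its peaks covered.

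**Figure D2:**
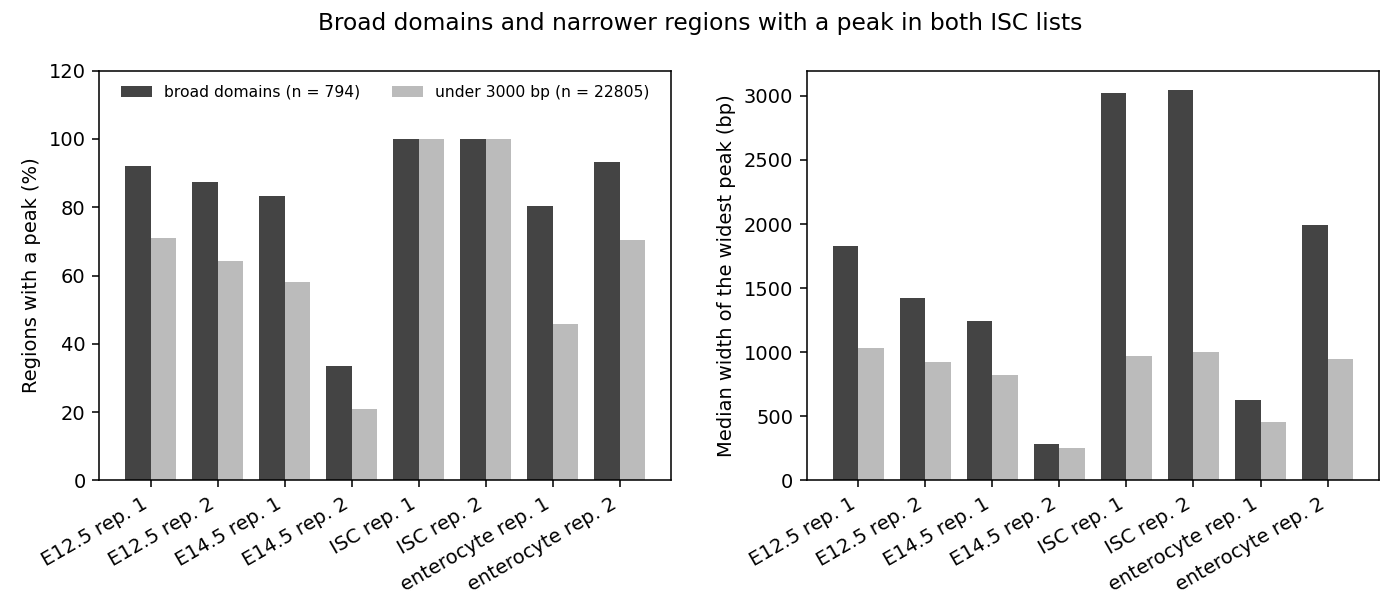
Share of regions with a peak (left, %) and median width of the widest peak in regions that have one (right, bp) in each library, for 794 broad domains (dark) and 22805 regions under 3000 bp with a peak in both ISC libraries (light). The dark bars are the higher ones in the 6 libraries outside ISC, and both ISC shares are 100% by the choice of regions.

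The number of peaks per domain also differed between libraries. It averaged 1.09 and 1.06 at E12.5, 0.991 and 0.437 at E14.5, 1.07 and 1.11 in ISC, and 1.36 and 1.13 in enterocytes. Several peaks of 1 library lay in the same domain in 129 and 139 domains at E12.5 (16.2% and 17.5%), 122 and 66 domains at E14.5 (15.4% and 8.31%), 56 and 88 in ISC (7.05% and 11.1%), and 322 and 147 in enterocytes (40.6% and 18.5%). In the narrower regions, which have less room for several peaks, the shares were 0.421% and 0.399% at E12.5, 0.368% and 2.25% at E14.5, 0.140% and 0.452% in ISC, and 9.35% and 0.496% in enterocytes. Both ISC libraries had exactly 1 peak in 663 domains (83.5%). Of these, 37 had several peaks in both enterocyte libraries and 48 had several in both E12.5 libraries. Several peaks lay in 285 of them in enterocyte replicate 1, the library of short fragment size, and in 91 of them in enterocyte replicate 2. The most peaks in a domain were 5, also in enterocyte replicate 1.

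The place of the other stages' peaks was read against the ISC peaks, which together filled 94.0% of all bases of the domains by the way these were chosen. Of the bases covered within domains, 93.8% and 96.0% at E12.5, 97.7% and 99.2% at E14.5, and 99.6% and 95.8% in enterocytes were also covered in at least 1 ISC library. All peaks of a library lay wholly within the ISC peaks in 68.1% and 79.4% of the domains that it occupied at E12.5, 85.8% and 97.8% at E14.5, and 95.1% and 68.4% in enterocytes. Shares of bases near 94.0% are what the ISC peaks' own extent gives and are no result about the other stages.

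Coverage was lowest at both ends of a domain in all 8 libraries. With each domain divided into 20 bins of equal width, the 2 outer bins were covered in 24.6% and 12.9% of domains at E12.5, 8.19% and 0.341% at E14.5, 50.6% and 55.9% in ISC, and 2.93% and 25.1% in enterocytes. For the 2 central bins the shares were 59.3% and 46.2% at E12.5, 40.4% and 4.33% at E14.5, 89.6% and 89.8% in ISC, and 24.8% and 66.0% in enterocytes. The ends of a union are by construction reached by few libraries. As a ratio, the outer bins held 0.415 and 0.280 of the central coverage at E12.5, 0.203 and 0.0787 at E14.5, 0.565 and 0.623 in ISC, and 0.118 and 0.380 in enterocytes. The middle of the covered bases had a median position of 0.499 to 0.516 of the domain's width in the 8 libraries. In single domains it was off the domain's middle by a median of 2.75% and 2.53% of the width in ISC, and by 8.87% to 19.6% in the other 6 libraries.

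**Figure D3:**
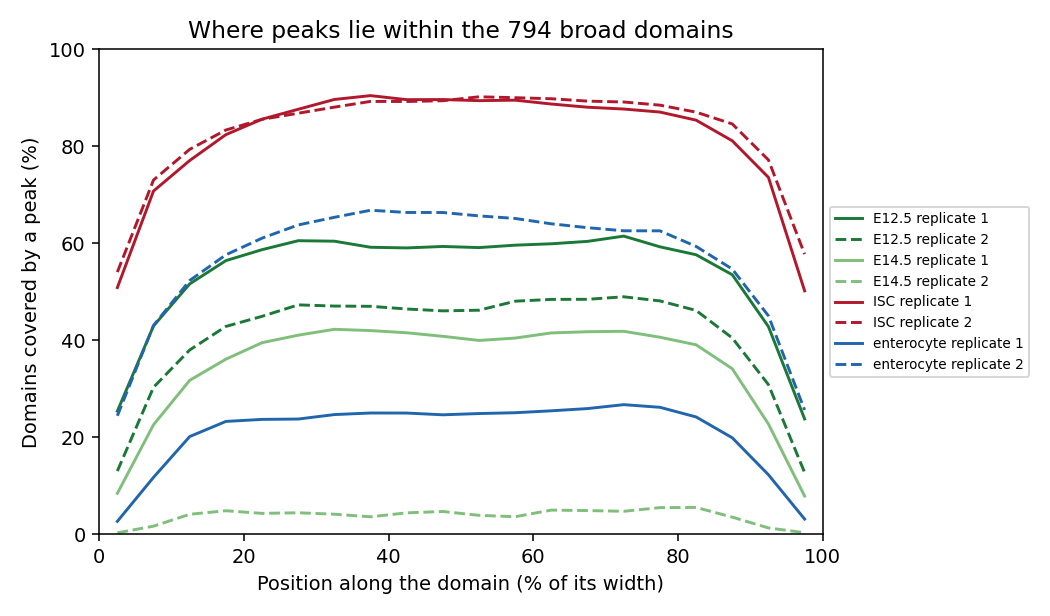
Share of the 794 broad domains covered by a peak (%) along the domain, from its lower to its higher coordinate in 20 equal bins, with 1 line per library (replicate 1 solid, replicate 2 dashed). The ISC lines reach 89.6% and 89.8% in the central bins, and every line drops at both ends.

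Bases shared by all stages formed a smaller core. Positions covered in at least 1 library of every stage made up 26.6% of the bases and occurred in 609 domains (76.7%), with a median of 902 bp over all 794. Positions covered in all 8 libraries made up 2.26% and occurred in 207 domains. Positions covered in both ISC libraries and in none of the other 6 made up 10.3% of the bases, over 546 domains, with a median of 101 bp over all 794. Positions outside all ISC peaks made up 6.04%. The choice by ISC peaks favours positions covered in ISC. These shares and counts were not computed for the narrower regions or all union regions, so they show no trait particular to the domains. Between pairs of libraries, the Jaccard index of covered bases within the domains (shared bases over bases in either) was 0.760 for the ISC libraries and 0.683 for E12.5. It was 0.104 for E14.5 and 0.360 for enterocytes. Enterocyte replicate 2 had a higher index with both ISC libraries (0.617 and 0.586), both E12.5 libraries (0.522 and 0.461) and E14.5 replicate 1 (0.427) than with its own replicate.

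Fold enrichment is the authors' ratio of tags in a peak to those its surroundings would give, and its scale differs between lists, so that values of different libraries stand side by side here without a comparison. The median over domains of the best fold was 4.01 and 3.44 at E12.5, 3.14 and 3.71 at E14.5, 3.89 and 3.89 in ISC, and 4.48 and 4.18 in enterocytes. In ISC this lay above the 3.39 and 3.59 of the narrower regions, and in enterocytes above their 4.35 and 3.89. A wider region has room for more peaks, which favours a higher best fold, and the part of this was not tested. In the embryonic libraries the domains and the narrower regions had nearly the same medians, with 4.01 against 4.01 and 3.44 against 3.48 at E12.5, and 3.14 against 3.16 and 3.71 against 3.71 at E14.5. Ranked among all peaks of the library, the domains' best fold stood at the percentiles 64.4 and 58.8 at E12.5, 51.9 and 49.4 at E14.5, 68.1 and 69.8 in ISC, and 66.8 and 66.9 in enterocytes.

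Within the set, the width of a domain and its best fold were hardly related. Across domains with a peak, Spearman's rho between the union width and the best fold was -0.10 to 0.02 in the 8 libraries (267 to 794 domains, described without a test because domains share their libraries). Between the bases covered in a library and its own best fold, rho was 0.13 and 0.23 at E12.5, 0.31 and 0.46 at E14.5, 0.06 and 0.17 in ISC, and 0.40 and 0.25 in enterocytes. Replicates ranked the domains alike by fold in ISC, with rho of 0.87 over 794 domains. The corresponding values were 0.64 at E12.5, 0.27 at E14.5 and 0.65 in enterocytes, over 688, 266 and 636 domains with a peak in both libraries. By covered bases, rho between replicates was 0.70 at E12.5, 0.14 at E14.5, 0.43 in ISC and 0.49 in enterocytes.

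Coverage was also set beside the size of the domain. ISC peaks filled 94.0% of all bases of the domains, so they largely set the width. With growing width this favours high shares in ISC over those of the other stages, and its part was not tested. In the 42 domains of at least 5000 bp, ISC peaks covered a median of 96.7% and 93.1% of the width, against 89.4% and 92.4% in the 423 domains under 3500 bp. At E12.5 the medians were 41.0% and 29.0% in the 42 wide domains and 54.6% and 43.7% in the 423. E14.5 replicate 1 had a median of 16.4% in the wide domains and 34.5% in the 423, and the median was 0% in both for E14.5 replicate 2. Enterocyte replicate 1 had 18.9% and 18.5%. Enterocyte replicate 2 covered 60.5% of the wide domains and 60.6% of the 423 in the median. It had a peak in 95.2% of the wide domains and 92.0% of the 423, and enterocyte replicate 1 in 85.7% and 78.0%. At E12.5 the shares with a peak went opposite ways, with 92.9% of the wide domains and 91.5% of the 423 in replicate 1, and 81.0% and 88.4% in replicate 2.

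In 4 of the 5 widest domains, both ISC libraries covered more bases than each of the other 6 libraries. The widest spanned 9925 bp on chromosome 14 at 22800956 to 22810880. The E12.5 libraries covered 971 and 0 bp of it, the E14.5 libraries 628 and 0 bp, the ISC libraries 9849 and 8003 bp, and the enterocyte libraries 741 and 3483 bp. The second, 8704 bp on chromosome 11 at 23973969 to 23982672, was broad at several stages. Its coverage was 6428 and 3804 bp at E12.5, 4820 and 0 bp at E14.5, 8512 and 8565 bp in ISC, and 2917 and 6645 bp in enterocytes. ISC coverage was the longest in both replicates. It was 1 peak in each ISC library, but 3 peaks in E12.5 replicate 2 and 4 in enterocyte replicate 1. Next came 58689079 to 58695872 of chromosome 14, with 1671 and 4437 bp in enterocytes and 6521 and 6516 bp in ISC. The fifth spanned 71197197 to 71203847 of chromosome 17 and had 2782 and 5898 bp in enterocytes, against 6212 and 5542 bp in ISC, with no peak in either E14.5 library. The widest single ISC peaks included 6649 bp in replicate 2 (chromosome 1, 167927578 to 167934226) and 6599 bp in replicate 1 (chromosome 12, 25779566 to 25786164). The ISC libraries covered 6599 and 5652 bp of the chromosome 12 domain, against 430 and 634 bp at E12.5.

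A few wide domains had no peak in enterocytes. The fourth widest of all, 6663 bp on chromosome 1 at 162236499 to 162243161, was covered over 3218 and 3678 bp at E12.5, 3088 and 566 bp at E14.5 and 4880 and 6320 bp in ISC, with no enterocyte peak. On chromosome 5 at 58105222 to 58111733, a domain of 6512 bp without an enterocyte peak was covered over 6245 and 5219 bp at E12.5, 4086 and 383 bp at E14.5 and 5601 and 3383 bp in ISC. The lengths of the ISC and E12.5 libraries overlapped. Those at 134503472 to 134507843 of chromosome 7 and 42751216 to 42755824 of chromosome 1 also had peaks at E12.5. The domain on chromosome 10 at 68567248 to 68571893 had peaks only in ISC, over 1742 and 4526 bp. Over the 51 domains without an enterocyte peak, 37 and 35 had a peak in the E12.5 libraries, shares below the 92.1% and 87.5% of all 794. The median covered length of the 51 was 2494 and 3053 bp in ISC. Their median best fold in ISC, 3.02 and 3.37, was below that of all 794.

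Other wide domains had no embryonic peak. The widest, 6520 bp on chromosome 10 at 44172859 to 44179378, was covered over 283 and 3926 bp in enterocytes and 6476 and 3646 bp in ISC. On chromosome 12 at 58635468 to 58641079 a domain of 5612 bp had 1080 and 4022 bp in enterocytes and 5480 and 5572 bp in ISC, nearly its whole width in both ISC libraries. Another, on chromosome 13 at 29040510 to 29045992, had 1484 and 2455 bp in enterocytes and 5483 and 3475 bp in ISC. On chromosome 10 at 98576996 to 98581665, the enterocyte libraries had 0 and 2632 bp and the ISC libraries differed, with 309 and 4495 bp. Of the 50 domains without an embryonic peak, 22 and 38 had a peak in the enterocyte libraries, with a median best fold of 4.31 and 3.54. Both shares were below the 80.4% and 93.3% of all 794 domains. Their median best fold in ISC was 2.85 and 3.14.

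In 28 domains both E12.5 libraries covered more than both ISC libraries, with medians of 1809.5 and 1631 bp in ISC against 3264 and 2846.5 bp at E12.5. These lengths chose the 28 domains, so their difference is no result. The largest difference was on chromosome 1 at 97561763 to 97565308, where ISC peaks covered 904 and 474 bp and E12.5 peaks 3218 and 3546 bp. The next was on chromosome 1 at 72916607 to 72921866, with 1018 and 1136 bp in ISC and 3864 and 3567 bp at E12.5. The other 3 of the first 5 were 8991973 to 8995232 of chromosome 8, 117323764 to 117326999 of chromosome 14 and 89082964 to 89086277 of chromosome 3. On chromosome 8, ISC peaks covered 569 and 576 bp and E12.5 peaks 3260 and 1888 bp. On chromosome 14, ISC peaks covered 492 and 1683 bp and E12.5 peaks 2847 and 3066 bp. On chromosome 3, ISC peaks covered 292 and 1385 bp and E12.5 peaks 3314 and 1959 bp, so the gap was much smaller in replicate 2. Enterocyte peaks were in 12 and 21 of the 28 domains, shares below the 80.4% and 93.3% of all 794. In E14.5 replicate 1 a peak was in 27 of the 28, a share above the 83.4% of all 794. Over all domains, 92.9% of the bases covered in E14.5 replicate 1 were also covered in E12.5 replicate 1. The choice by long E12.5 coverage therefore favours this higher share.

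The domains with the highest fold in both ISC libraries were not among the widest. The first, 3181 bp on chromosome 4 at 108131053 to 108134233, reached 4.28 and 2.90 at E12.5, 8.08 and 7.59 in ISC, and 4.31 and 6.16 in enterocytes. Each of the 7 libraries that occupied it had 1 peak there, of 2315 and 3181 bp in ISC and 1312 and 1777 bp at E12.5. The next by ISC fold were 12574557 to 12577561 of chromosome 19 with 6.69 and 6.64, 73108624 to 73112182 of chromosome 14 with 6.43 and 6.56, 26678509 to 26682600 of chromosome 19 with 6.41 and 6.42, and 39674066 to 39677194 of chromosome 6 with 6.94 and 6.40. These 4 had a peak in all 8 libraries. The domain of chromosome 19 at 26678509 had the longest coverage of these 5 in both E12.5 libraries and in E14.5 replicate 1, with 3444 and 185 bp in the E14.5 libraries and 3865 and 2659 bp in those of E12.5. In E14.5 replicate 2, 3 of the other 4 were longer, with 236 to 699 bp.

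**Figure D4:**
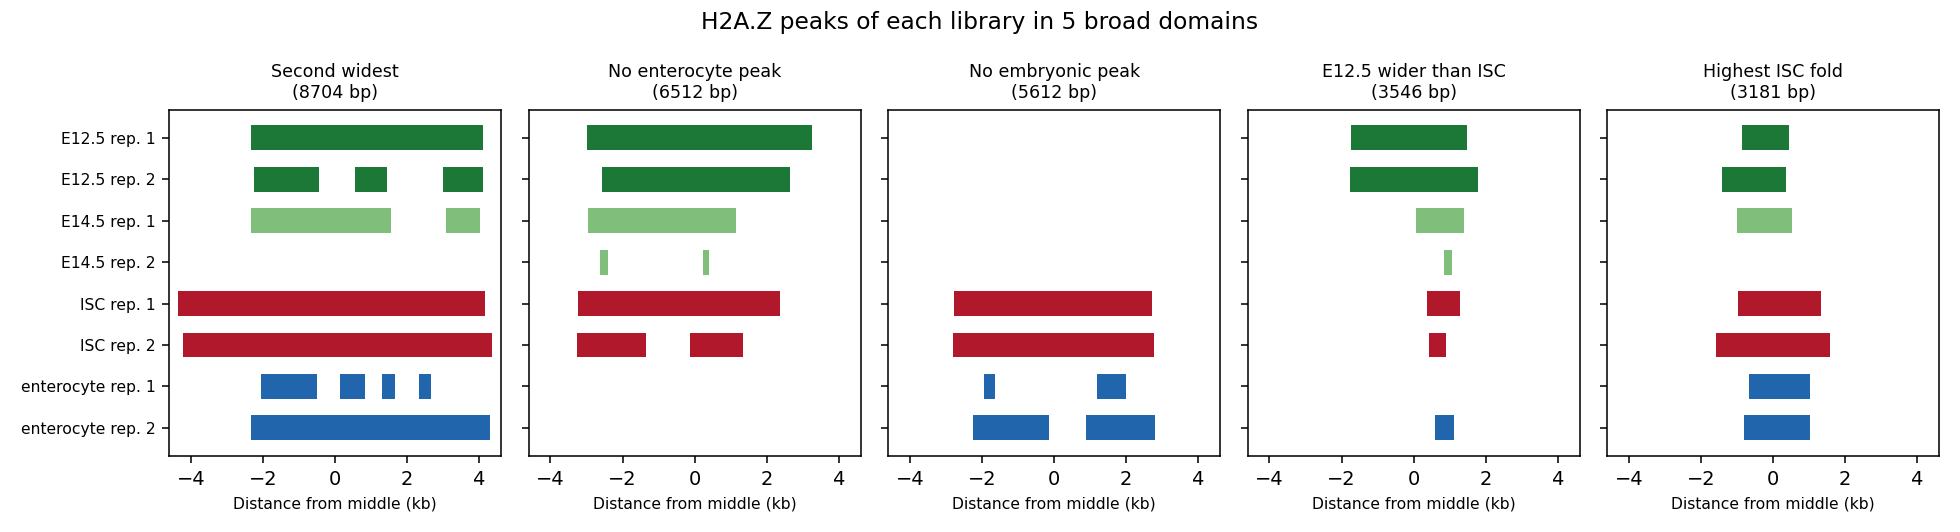
H2A.Z peaks (bars) of the 8 libraries in 5 broad domains, drawn to scale as the distance from the middle of the domain (kb). From left to right these are the second widest (8704 bp), a domain with no enterocyte peak (6512 bp), one with no embryonic peak (5612 bp), the one with the largest excess of E12.5 over ISC coverage (3546 bp) and the one with the highest ISC fold (3181 bp).

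To see broad ISC regions in libraries that took no part in choosing them, peaks of the 2 ISC libraries alone were joined, a comparison added after the data had been seen. Of the regions with peaks in both, 640 were at least 3000 bp wide and 22962 were narrower. The share with a peak was higher in the broad regions in 6 of 6 libraries of the other stages, with a mean of 78.8% ± 22.6 in broad and 55.2% ± 19.1 in narrower regions (SD, n = 6 libraries). The mean difference was 23.6 percentage points, smallest in E14.5 replicate 2 (33.6% of broad and 21.1% of narrower regions) and largest, 36.9 points, in enterocyte replicate 1 (exact two-sided sign-flip permutation p = 0.0312, the smallest that 6 libraries can give, adjusted p = 0.0469 over 3 measures). The widest peak was also wider in 6 of 6 libraries, with medians that averaged 1214 ± 654 bp in broad and 743 ± 312 bp in narrower regions (SD, n = 6 libraries; exact permutation p = 0.0312, adjusted p = 0.0469). Without any 1 library the smallest p possible was 0.0625, and the mean differences without each in turn were 20.9 to 25.8 percentage points and 352.9 to 558.3 bp. A wider window meets more and longer peaks by its size alone, which favoured this direction in every library in advance. All 6 libraries were also read in the same regions. The p-values therefore cannot tell a trait of broad ISC regions from window size, whose part was not tested.

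The height of the peaks had no shared direction over the 6 libraries. The median best fold averaged 3.84 ± 0.500 in the broad and 3.77 ± 0.420 in the narrower regions (SD, n = 6 libraries). It was higher in 3 of 6 libraries (exact two-sided permutation p = 0.469, adjusted p = 0.469), and the differences ran from -0.02 to 0.35. Enterocyte replicate 2 had the largest, with 4.25 in broad and 3.89 in narrower regions, and enterocyte replicate 1 had 4.48 and 4.35. The embryonic libraries had nearly the same medians in both. At E12.5 these were 4.02 and 4.01 in replicate 1 and 3.46 and 3.48 in replicate 2. At E14.5 they were 3.15 and 3.16 in replicate 1 and 3.69 and 3.71 in replicate 2. A p of this size does not show that the heights were alike. Among the 640 regions, a single peak of at least 3000 bp occurred in 107 and 36 at E12.5, in 29 and 0 at E14.5 and in 2 and 130 in enterocytes. The 6 libraries are of 3 stages, and both enterocyte libraries share an input, so they are not fully independent.

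**Figure D5:**
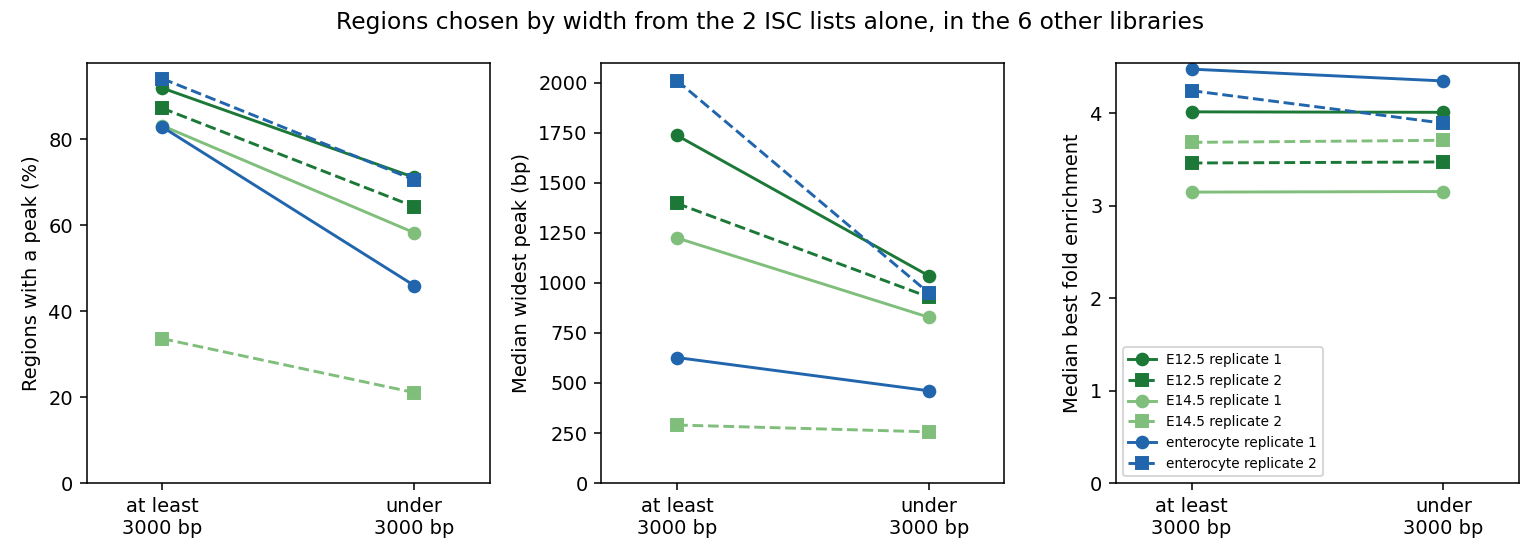
Regions chosen by width from the 2 ISC libraries alone, 640 of at least 3000 bp (left of each panel) and 22962 under 3000 bp (right), in the 6 libraries of the other stages. Panels give the share with a peak (%), the median width of the widest peak (bp) and the median best fold enrichment, with 1 line per library. All 6 lines fall in the first and second panels, and 3 of 6 in the third.

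The domains were spread over all 19 autosomes. Chromosomes 1 and 5 held the most, with 55 each, and chromosome 16 the fewest, with 23. The share of domains among regions with a peak in both ISC libraries was 2.64% to 4.87% per chromosome, highest on chromosome 18 (37 domains) and lowest on chromosome 2 (49 domains). Neighbouring domains were a median of 1805 kb apart. In 11 cases the next domain began within 10 kb, and in 54 within 100 kb. The nearest pair lay on chromosome 16 at 23981169 to 23985410 and 23986987 to 23990159, with a gap of 1576 bp. The first of this pair was covered over 3061 and 2985 bp in ISC and 964 and 0 bp at E12.5, the second over 2744 and 3102 bp in ISC and 1956 and 1984 bp at E12.5. The only stretch of 3 domains with gaps within 10 kb was on chromosome 7, from 80739381 to 80764174. Its middle domain had a peak in all 8 libraries, with 2709 and 2551 bp in ISC and 2208 and 1958 bp at E12.5, and its last was longer at E12.5, with 1460 bp in both ISC libraries and 3308 and 2146 bp at E12.5.

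Few wide regions lacked a peak in one or both ISC libraries. Of the 810 union regions of at least 3000 bp, these numbered 16, and ISC replicate 2 had a peak in 10 of them and ISC replicate 1 in 2. The E12.5 libraries had a peak in 11 and 8, E14.5 replicate 1 in 9 and enterocyte replicate 2 in 6. The widest, 3487 bp on chromosome 16 at 36087440 to 36090926, was covered in full by enterocyte replicate 2, with 880 bp in enterocyte replicate 1, 367 bp in ISC replicate 1 and no embryonic peak. Another, on chromosome 19 at 47043146 to 47046501, had 3356 and 2976 bp at E12.5 and 843 bp in E14.5 replicate 1, and no adult peak.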

How the data were processed

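The authors deposited 1 peak list for each of 8 H2A.Z libraries. Per the file headers, each library was called singly against its input by MACS 2.1.0.20140616, as broad peaks. The headers give a q cutoff of 0.05 and a shift model built from enrichments between 10 and 30. The lowest −log10 q was 1.00 to 1.06 in the 8 lists, so they also hold peaks with a listed q above 0.05. Further tools in the submitters' processing notes are Bowtie 1.1.2, SAMtools 1.2 and bcl2fastq 1.8.4, with the build mm9. For each peak the deposited lists give its width, the pileup as a coverage signal, the −log10 of its p and q and the fold enrichment, a ratio to the local background, all computed by the authors' caller. Fold was used within a list only, to describe and rank peaks and to set broad beside narrower regions, since its scale differs between lists.

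Here, peaks on chromosomes 1 to 19 were joined where they overlapped or touched. For each domain and list, covered bases, the number of peaks, the widest peak and the best fold were computed with Python 3.11.15, pandas 2.3.3 and scipy 1.17.1, and joining was checked against a count per base on simulated intervals. A library had a domain if at least 1 peak lay in it. No 2 lists were copies, as 3 peak intervals recurred exactly between lists. The members and lists were chosen with earlier results of these data known. Domains are named by fixed rules: the 5 widest, those with the highest lower fold of both ISC lists, the widest ISC peaks, the widest without enterocyte or embryonic peaks, and those longer at E12.5 than in ISC. None was longer in both enterocyte libraries. Exact p-values are from sign-flip permutations over 6 libraries, adjusted by Benjamini-Hochberg.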

Additional observations from a re-analysis of the deposited data

Results flagged for a closer look

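The sex chromosomes lay outside the choice of domains, and peaks on them are given because no comparison above used them. On X, 16 regions of at least 3000 bp had a peak in both ISC libraries, among 578 with a peak in both. The widest, 5443 bp at 130221300 to 130226742, was covered over 0 and 2192 bp in enterocytes and 5168 and 5254 bp in ISC. On Y, 5 such regions were found, among 18 with a peak in both ISC libraries. All 5 also had a peak in both E14.5 libraries and in none of the E12.5 or enterocyte libraries, and they lay between 2780535 and 2898114. The widest, 8344 bp at 2863909 to 2872252, was covered over 6031 and 4858 bp in ISC and 6442 and 3065 bp at E14.5. Repeats and the input signal at these places were not checked. The labels give males for both adult cell types and no sex for the embryos.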

How the results depend on the processing

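No paired analysis was possible because the values of the stages come from no test that replicate numbers could pair. The permutation test sets broad beside narrower regions within each library. Over all alternatives, 227 recomputed values stayed within the spread of the replicates or kept their side of the test (counts within 1.5 times, shares of domains within their 95% Wilson interval), 50 moved further, and 14 lost their call. The spread was the SD of 2 libraries. E14.5 coverage of 0% or 33.3% and enterocyte coverage of 18.3% or 59.6%, each without 1 library of the stage, therefore counted among the 227. An ISC fold of 3.88 against 3.89 counted as moved. The fold test could not change side with fewer than 6 libraries. The 227 are thus no measure of stability. With a minimum of 2000 bp there were 4158 domains, with a median covered share of 56.5% at E12.5 and 89.7% in ISC, and an ISC fold of 4.01. With 5000 bp there were 42, of which 16.7% had all 8 libraries, with 35.0% at E12.5, 94.9% in ISC, an ISC fold of 3.86, 1.5 enterocyte peaks, and 4.76% without enterocyte peaks. Peaks with −log10 q of at least 10 left 255 domains, of which 0% had all 8 libraries. Then the covered share was 5.57% at E12.5, 95.9% in ISC and 0% in enterocytes, with 0.5 peaks and a fold of 4.93 at E12.5, a fold of 4.72 in ISC and 0 enterocyte peaks, and 75.7% lacked enterocyte and 49.0% embryonic peaks. The strongest 6136 peaks of each list gave 185 domains, 35.1% at E12.5, 95.0% in ISC, folds of 4.66 at E12.5, 4.99 in ISC and 4.94 in enterocytes, and 14.1% without embryonic peaks. In these 185 domains the covered share in enterocytes was 45.6%, and 5.95% lacked an enterocyte peak. Joining ISC peaks alone gave 96.6% and a fold of 3.94 in ISC, joining within 500 bp a fold of 3.88, and requiring ISC peaks over 50% of the domain 93.0%, a fold of 3.96, and 4.62% and 4.17% without enterocyte or embryonic peaks. Without both libraries of short fragment size, 76.3% had every library. Leaving out each library in turn gave 25.9% to 68.1% with every library, ISC coverage of 91.5% to 97.0%, an ISC fold of 3.81 to 3.92, and 5.18% to 19.9% of domains without enterocyte and 4.15% to 9.73% without embryonic peaks. The cause of these shifts was not tested. The shares of other regions without enterocyte or embryonic peaks were computed for the main setting only. The ISC-only differences kept their direction but could not pass the threshold with fewer than 6 libraries. The number of peaks and the estimated fragment size differed between the lists, and their part in which domains had a peak was not tested.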
